A study of Caenorhabditis elegans with 21 samples.

Results

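The genes described here are 38 of the 22840 genes listed in the expression table of an mRNA-seq experiment in Caenorhabditis elegans, chosen by name because they encode subunits of the vacuolar proton pump or proteins of the lysosome. They comprise 9 subunits of the cytosolic V1 sector of the pump, 10 of its membrane V0 sector, 1 accessory subunit, 13 lysosomal membrane, transport or trafficking proteins and 5 lysosomal hydrolases. Polyadenylated RNA of whole worms was sequenced in 21 libraries. The wild type and the single mutants pmk-1(D327E) and pmk-1(-) had 3 replicates apiece. Both daf-16 single mutants, m26 and mgDf50, had 2 replicates apiece, as had each of the 4 doubles that join a daf-16 allele to a pmk-1 allele. pmk-1(-) is the null allele km25 of the p38 mitogen-activated kinase gene pmk-1, and pmk-1(D327E) is the edited allele miy7, whose product resists cleavage by caspases. daf-16 encodes the FOXO transcription factor of the insulin pathway, and its alleles were mgDf50, a deletion, and m26, a splice site mutation. The experiment asked how the pmk-1 alleles affect gene expression and how far that depends on daf-16.

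Each genotype was 1 strain, so an allele and the rest of its strain background cannot be told apart, and the wild-type strain was a sibling of the pmk-1(D327E) strain. Each library was made from a large pool of worms that were synchronized as eggs hatching over 24 h in M9 buffer, then grown at 20 °C for 48 h on OP50 bacteria, and harvest was timed on the wild type reaching late L4. The labels call the stage late L4, whereas the methods of the study speak of young adults. In such bulk RNA, fewer cells of a type and less RNA per cell cannot be told apart. Values are in TPM, a transcript abundance scaled to the library total and to gene length, so levels may be compared between genes. Values of replicate libraries are given below in the order of their replicate numbers.

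The vacuolar H+-ATPase (V-ATPase) is a rotary pump in which ATP hydrolysis in the V1 sector drives protons through the ring of proteolipid c subunits of the V0 sector, beside the a subunit. It acidifies lysosomes, where acid hydrolases break down proteins, lipids, sugars and nucleic acids, and membrane transporters export the products. In C. elegans several subunits have paralogs with different sites of expression, among them the intestine, the excretory canal and epidermis, and neurons, and intestinal cells hold lysosome-related gut granules.

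daf-16 was low in the 6 daf-16(mgDf50) libraries, at 6.12 to 7.78 TPM (median 7.11, n = 6), against 41.5 to 47.4 TPM (median 44.2, n = 9) with daf-16 intact and 55.0 to 61.8 TPM (median 58.6, n = 6) with m26. pmk-1 RNA persisted in pmk-1(-), at 11.3 ± 0.552 TPM (SD, n = 3) against 14.6 ± 0.654 TPM in wild type, so its level is no check of that label. A few libraries stood apart in cell-type markers. The summed level of 5 intestine markers (ges-1, elt-2, act-5, ifb-2 and pept-1, none listed at 0) was 1425 TPM in daf-16(mgDf50) replicate 1 and 1298 TPM in pmk-1(-) replicate 1, and 634 TPM in wild type replicate 2 and 616 TPM in pmk-1(-) replicate 2. The intestine sum was higher in replicate 1 than in replicate 2 in 9 of 9 genotypes, and the summed level of 4 oocyte markers (oma-1, oma-2, puf-5 and rme-2, none listed at 0) in 0 of 9.

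All 38 genes were detected in every library, none being listed at 0, and all passed the filter of a mean of 1 TPM over the libraries, as did 12843 genes of the whole table. V-ATPase genes were among the most abundant transcripts of the worm. vha-2, which encodes a proteolipid c subunit, averaged 917 TPM over the 21 libraries, above 99.3% of the genes listed. In wild type the V1 genes summed to 2954 ± 247 TPM and the V0 genes to 2809 ± 149 TPM (SD, n = 3). The lysosomal membrane and hydrolase genes spanned a wider range, down to 1.53 TPM for ncr-2.

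**Figure D1:**
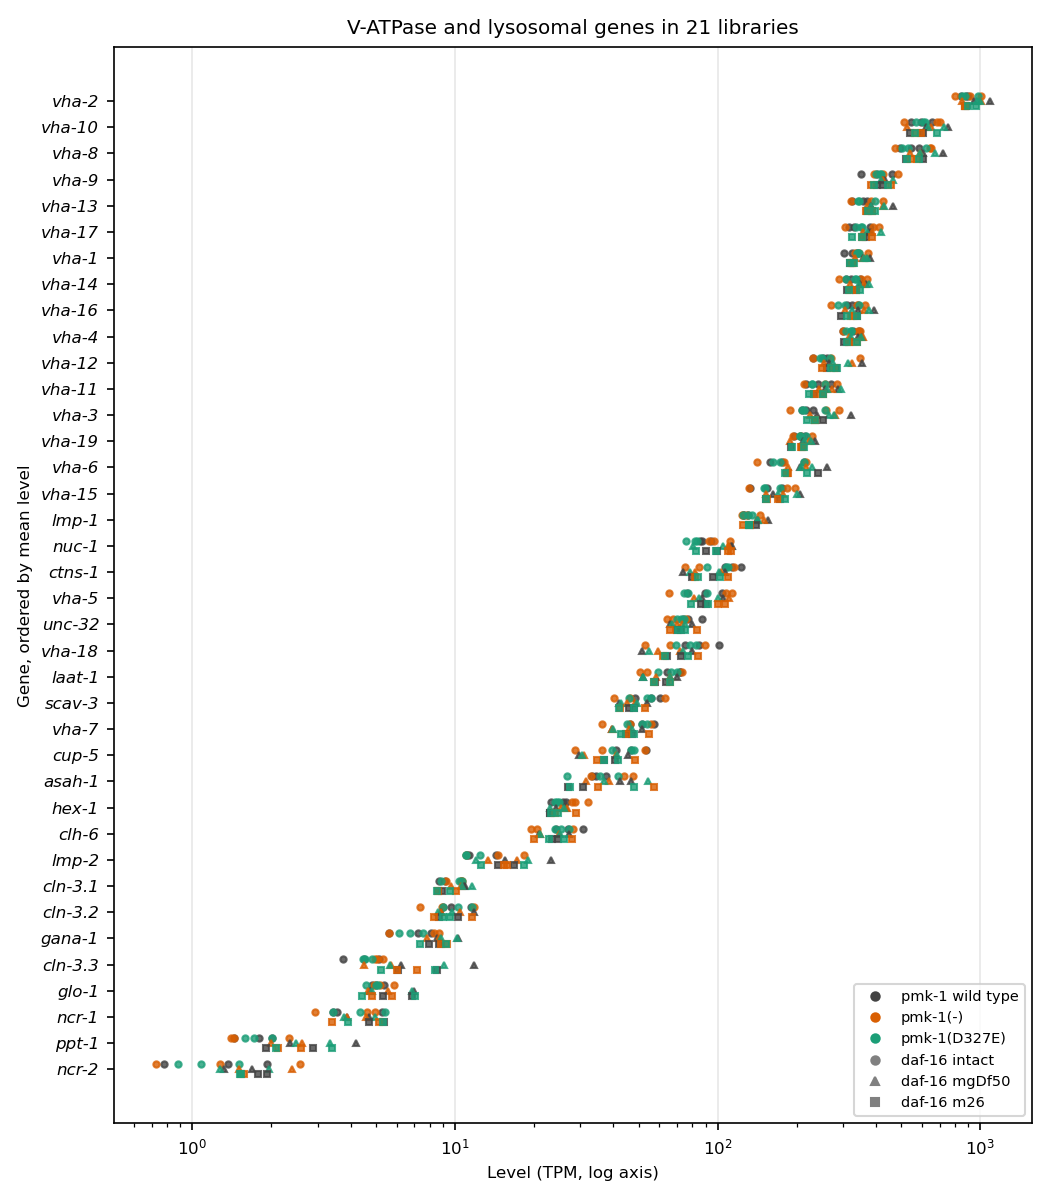
Level of each of the 38 genes in each of the 21 libraries, in TPM on a log axis, with genes ordered by their mean; colour gives the pmk-1 allele and marker shape the daf-16 allele. The points of V-ATPase genes lie close together, and cln-3.3, ppt-1 and ncr-2 spread the most.

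In the V1 sector, vha-13 encodes the ATP-hydrolysing A subunit and averaged 381 TPM, and vha-12, which encodes the B subunit, 274 TPM. The stalk subunits are encoded by vha-14 (D, 336 TPM), vha-8 (E, 576 TPM), vha-9 (F, 422 TPM) and vha-10 (G, 616 TPM), and vha-11 (C, 250.3 TPM) encodes the subunit that joins the sectors and leaves when they part. Over the 21 libraries vha-13 ran from 321 to 466 TPM, vha-8 from 471 to 723 TPM and vha-10 from 512 to 756 TPM. Genotype means of vha-12 ran from 248 TPM in wild type to 309.5 TPM in daf-16(mgDf50), and those of vha-9 from 405 TPM in wild type to 442 TPM in daf-16(mgDf50);pmk-1(D327E). Genotype means of vha-14 ran from 324 TPM in daf-16(m26) to 361 TPM in daf-16(mgDf50);pmk-1(D327E), and those of vha-11 from 237 TPM in daf-16(m26);pmk-1(D327E) to 279 TPM in daf-16(mgDf50);pmk-1(D327E).

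The regulatory H subunit has a pair of genes here. vha-15 averaged 167 TPM with genotype means from 154 TPM in wild type to 185 TPM in daf-16(mgDf50);pmk-1(D327E), and vha-18 averaged 72.0 TPM. vha-18 stood at 84.9, 101 and 75.4 TPM in wild type, at 52.8, 89.5 and 65.6 in pmk-1(-) and at 78.4, 82.4 and 69.6 in pmk-1(D327E). vha-18 stood at 51.5 and 79.6 TPM in daf-16(mgDf50), 59.3 and 71.7 in its pmk-1(-) double and 54.9 and 73.6 in its pmk-1(D327E) double, and at 63.9 and 72.4 in daf-16(m26), 61.8 and 83.8 in its pmk-1(-) double and 62.7 and 77.0 in its pmk-1(D327E) double. Replicate 1 lay below replicate 2 in every genotype. vha-18 made up 30.3% of the H-subunit TPM over all libraries, between 20.0% and 43.3%. The share was 36.3% ± 6.65 in wild type (SD, n = 3) and 25.9% ± 6.22 in daf-16(mgDf50);pmk-1(D327E) (n = 2), and their libraries overlapped, the lowest of wild type being 30.1% and the highest of the double 30.3%. Among the 38 genes vha-18 had the largest log2 fold change in size in pmk-1(-) against wild type, -0.35 (SE 0.21, adjusted p = 0.746), and in pmk-1(D327E) against wild type, -0.17 (SE 0.21, adjusted p = 1.00), and neither passed the test. ctns-1 was close behind in pmk-1(-), at -0.34, and the order rested on single libraries, since vha-18 stood at -0.17 without pmk-1(-) replicate 1, -0.55 without pmk-1(-) replicate 2 and -0.24 without wild type replicate 2, and ctns-1 at -0.20, -0.51 and -0.28.

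The a subunit, which carries the proton path and places the pump in a membrane, is encoded by 4 paralogs. vha-6, whose product sits on the apical membrane of the intestine, was the most abundant, at 48.0% of the a-subunit TPM. vha-6 stood at 175, 158 and 214 TPM in wild type, at 217, 141 and 179 in pmk-1(-) and at 162, 173 and 214 in pmk-1(D327E). vha-6 stood at 261 and 206 TPM in daf-16(mgDf50), 217 and 185 in its pmk-1(-) double and 228 and 208 in its pmk-1(D327E) double, and at 240.0 and 183 in daf-16(m26), 185 and 184 in its pmk-1(-) double and 219 and 181 in its pmk-1(D327E) double. vha-6 was thus lowest in pmk-1(-) replicate 2 and highest in daf-16(mgDf50) replicate 1, the libraries with the lowest and the highest intestine marker sum. The share of vha-6 in the a-subunit TPM ran from 41.6% to 55.5%.

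vha-5, known from the epidermis and the excretory canal, took 22.4% of the a-subunit TPM. vha-5 stood at 89.5, 76.5 and 104 TPM in wild type, at 108, 65.0 and 113 in pmk-1(-) and at 74.2, 77.3 and 90.9 in pmk-1(D327E). vha-5 stood at 104 and 86.9 TPM in daf-16(mgDf50), 110.5 and 81.0 in its pmk-1(-) double and 99.9 and 85.2 in its pmk-1(D327E) double, and at 90.3 and 86.2 in daf-16(m26), 100.5 and 107 in its pmk-1(-) double and 91.9 and 79.0 in its pmk-1(D327E) double. Its libraries within wild type and within pmk-1(-) differed more than the genotype means did. unc-32, needed in neurons, took 17.98%. unc-32 stood at 76.9, 87.2 and 73.8 TPM in wild type, at 64.1, 75.8 and 67.5 in pmk-1(-) and at 69.8, 72.6 and 74.2 in pmk-1(D327E). unc-32 stood at 65.7 and 79.5 TPM in daf-16(mgDf50), 70.1 and 73.4 in its pmk-1(-) double and 66.7 and 75.00 in its pmk-1(D327E) double, and at 69.9 and 72.7 in daf-16(m26), 65.8 and 83.4 in its pmk-1(-) double and 70.3 and 74.7 in its pmk-1(D327E) double. It varied little, and its daf-16(m26) libraries lay below those of wild type. vha-7, known from the epidermis and the uterus, took 11.7%. vha-7 stood at 51.5, 57.4 and 46.2 TPM in wild type, at 36.12, 55.5 and 46.3 in pmk-1(-) and at 51.6, 53.8 and 45.3 in pmk-1(D327E). vha-7 stood at 39.7 and 51.5 TPM in daf-16(mgDf50), 39.6 and 45.9 in its pmk-1(-) double and 39.8 and 47.2 in its pmk-1(D327E) double, and at 44.7 and 47.3 in daf-16(m26), 45.1 and 54.6 in its pmk-1(-) double and 42.9 and 48.1 in its pmk-1(D327E) double. The wild-type and mutant libraries of vha-7 overlapped in each single-mutant comparison.

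Of the c-subunit TPM, vha-2 held 61.1%, vha-1 22.7% and vha-3 16.1%, and the share of vha-2 stayed between 59.0% and 62.9% in the 21 libraries, a narrower range than those of vha-18 and vha-6. vha-2 and vha-3 encode the same protein, and reads from their near-identical coding sequences could be split between them, so both levels are uncertain. vha-2 stood at 881, 843 and 896 TPM in wild type, at 1004, 802 and 910.2 in pmk-1(-) and at 854, 871 and 976 in pmk-1(D327E). vha-2 stood at 1090.4 and 943 TPM in daf-16(mgDf50), 1006 and 849.7 in its pmk-1(-) double and 994 and 967 in its pmk-1(D327E) double, and at 876 and 879 in daf-16(m26), 871 and 874 in its pmk-1(-) double and 959 and 899.9 in its pmk-1(D327E) double. vha-2 was highest in daf-16(mgDf50) replicate 1.

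vha-1 stood at 326, 303 and 338 TPM in wild type, at 346, 333 and 375 in pmk-1(-) and at 338, 341 and 344 in pmk-1(D327E). vha-1 stood at 381 and 357 TPM in daf-16(mgDf50), 361 and 332 in its pmk-1(-) double and 369 and 361 in its pmk-1(D327E) double, and at 326 and 318 in daf-16(m26), 321 and 326.8 in its pmk-1(-) double and 331 and 319 in its pmk-1(D327E) double. The daf-16(mgDf50) libraries of vha-1 lay above those of wild type. vha-3 stood at 231, 209 and 217 TPM in wild type, at 289, 189 and 259 in pmk-1(-) and at 213, 209 and 256 in pmk-1(D327E). vha-3 stood at 323 and 238 TPM in daf-16(mgDf50), 279 and 225 in its pmk-1(-) double and 278 and 266 in its pmk-1(D327E) double, and at 252 and 234 in daf-16(m26), 234.9 and 234 in its pmk-1(-) double and 234.9 and 219 in its pmk-1(D327E) double. Wild type held the lowest genotype mean of vha-3. vha-4 encodes the larger proteolipid, c'', of the same ring. vha-4 stood at 328, 299 and 344 TPM in wild type, at 349, 299 and 342 in pmk-1(-) and at 308, 321 and 322 in pmk-1(D327E). vha-4 stood at 354 and 341 TPM in daf-16(mgDf50), 359 and 316 in its pmk-1(-) double and 350.3 and 322 in its pmk-1(D327E) double, and at 317 and 304 in daf-16(m26), 317 and 339 in its pmk-1(-) double and 340.4 and 309 in its pmk-1(D327E) double. Its highest library was only 1.201 times its lowest, the narrowest range of the 38 genes.

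vha-1 and vha-2 are neighbours on one strand of chromosome III, and vha-3 and vha-11 on one strand of chromosome IV, with no coding gene between. The levels of vha-3 and vha-11 were close, at 242 and 250.3 TPM, while vha-2 exceeded vha-1 (917 and 340.3 TPM). The remaining V0 genes were vha-16, for the d subunit that links the ring to the stalk (329.7 TPM), and vha-17, for the small e subunit (362 TPM). Genotype means of vha-16 ran from 313 TPM in pmk-1(D327E) to 369 TPM in daf-16(mgDf50), and those of vha-17 from 339 TPM in daf-16(m26);pmk-1(D327E) to 395 TPM in daf-16(mgDf50);pmk-1(D327E). vha-19, which encodes an accessory subunit related to mammalian Ac45, averaged 209 TPM with genotype means from 199 TPM in daf-16(m26) to 222 TPM in daf-16(mgDf50). It overlaps otub-4 on the other strand, and the strand setting of the counting is not given in the sources used here, so their reads may not be told apart. vha-2 and vha-13 overlap genes on their own strand, R10E11.6 (16.3 TPM) and Y49A3A.3 (21.5 TPM), at much lower levels than theirs.

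Among the membrane proteins, lmp-1 and lmp-2 encode relatives of the mammalian LAMP proteins and scav-3 a relative of the scavenger receptor LIMP-2. lmp-1 averaged 135 TPM (genotype means from 127 TPM in wild type to 149 TPM in daf-16(mgDf50)), lmp-2 14.7 TPM (from 11.5 TPM in pmk-1(D327E) to 19.4 TPM in daf-16(mgDf50)) and scav-3 49.1 TPM (from 45.1 TPM in daf-16(m26);pmk-1(D327E) to 54.9 TPM in wild type). Transporters and channels were led by ctns-1, for cystinosin, the cystine exporter, which averaged 96.5 TPM. ctns-1 stood at 114, 123 and 107 TPM in wild type, at 74.96, 116 and 85.1 in pmk-1(-) and at 107, 109.6 and 91.0 in pmk-1(D327E). ctns-1 stood at 73.9 and 106 TPM in daf-16(mgDf50), 81.7 and 103 in its pmk-1(-) double and 78.4 and 101 in its pmk-1(D327E) double, and at 80.0 and 96.2 in daf-16(m26), 82.2 and 109.8 in its pmk-1(-) double and 84.1 and 102 in its pmk-1(D327E) double. ctns-1 was lower in replicate 1 than in replicate 2 in every genotype, and both daf-16(m26) and both daf-16(mgDf50) libraries lay below all of wild type.

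laat-1, an exporter of lysine and arginine, averaged 62.5 TPM with genotype means from 58.9 TPM in daf-16(mgDf50);pmk-1(D327E) to 69.3 TPM in wild type. cup-5, for the TRPML1 cation channel, averaged 40.5 TPM (from 35.9 TPM in daf-16(mgDf50);pmk-1(D327E) to 47.1 TPM in wild type) and clh-6, for a chloride transport protein of the CLC family, 24.4 TPM (from 22.7 TPM in pmk-1(-) to 27.3 TPM in wild type). The 3 homologs of the Batten disease gene CLN3 were near one another, cln-3.1 at 9.85 TPM (from 8.78 TPM in daf-16(m26) to 11.1 TPM in daf-16(mgDf50);pmk-1(D327E)), cln-3.2 at 9.75 TPM (from 9.16 TPM in daf-16(mgDf50);pmk-1(D327E) to 10.3 TPM in daf-16(mgDf50)) and cln-3.3 at 6.04 TPM. The homologs of the Niemann-Pick C1 cholesterol transporter were low, ncr-1 at 4.36 TPM (from 4.07 TPM in wild type to 5.03 TPM in daf-16(m26)) and ncr-2 at 1.53 TPM (from 1.16 TPM in pmk-1(D327E) to 1.95 TPM in daf-16(mgDf50);pmk-1(-)). ncr-2 overlaps col-91 on the other strand, which averaged more, 6.60 TPM, and reads of the pair may not be told apart. glo-1, a Rab GTPase needed for gut granules, averaged 5.41 TPM (from 4.89 TPM in pmk-1(D327E) to 6.10 TPM in daf-16(m26)). Of the hydrolases, nuc-1 (DNase II, which degrades the DNA of dead cells and food) averaged 96.8 TPM, asah-1 (acid ceramidase) 38.5, hex-1 (beta-hexosaminidase) 25.5, gana-1 (alpha-galactosidase) 8.09 and ppt-1 (palmitoyl-protein thioesterase) 2.27 TPM.

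None of the 38 genes passed the threshold against wild type with either pmk-1 allele. Genes were tested with limma on log2(TPM + 1), over all 12843 genes that passed the filter, and called at an adjusted p below 0.1. Fold changes are on the log2(TPM + 1) scale, which understates the change of the low genes. In pmk-1(-), 0 of 38 were called, against 0.631% of all genes tested, and 1 had an unadjusted p below 0.05 (4.65% of all genes). In pmk-1(D327E), 0 of 38 were called, against 0.0779% of all genes, and 0 had an unadjusted p below 0.05 (1.03% of all genes). The median log2 fold change of the 38 was 0.05 in pmk-1(-), beside -0.05 over all genes tested, and -0.01 in pmk-1(D327E), beside -0.03. With 1 library left out the median of the 38 ran from -0.01 without pmk-1(-) replicate 1 to 0.15 without pmk-1(-) replicate 2, and in pmk-1(D327E) from -0.05 without wild type replicate 2 to 0.03 without wild type replicate 3, so its sign was not stable. With the replicate number as a block, 0 of 38 were called in pmk-1(-), against 1.67% of all genes. That pairing was inferred from the values themselves and was not set against other pairings. Both comparisons share the wild-type libraries.

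Averaged over the 3 daf-16 backgrounds, which uses 7 libraries of each pmk-1 allele, 0 of 38 were called for pmk-1(-) (1.65% of all genes) and 0 for pmk-1(D327E) (0.296% of all genes), and 1 and 1 of the 38 had an unadjusted p below 0.05 (6.31% and 1.6% of all genes). The intervals bounded these differences on log2(TPM + 1) after the authors' removal of duplicate reads, which lowers the ceiling for abundant genes. For low genes such as ppt-1 and ncr-2, 1.5-fold on this scale is a larger change in TPM. The 95% interval lay within 1.5-fold in either direction for 38 of 38 genes, against 78.3% of all genes tested, in the pmk-1(-) average, and for 38 of 38 genes, against 82.2% of all genes tested, in the pmk-1(D327E) average. Against wild type alone it did so for 31 of 38 genes, against 50.2% of all genes tested, in pmk-1(-), and for 36 of 38 genes, against 66.9% of all genes tested, in pmk-1(D327E). The V-ATPase subunits as a group had averaged fold changes from -0.14 to 0.09 for pmk-1(-) and from -0.08 to 0.04 for pmk-1(D327E). Within daf-16(mgDf50), 0 of 38 were called for pmk-1(-) (0.405% of all genes) and 0 for pmk-1(D327E) (0.202%). Within daf-16(m26), 0 of 38 were called for pmk-1(-) (0.358%) and 0 for pmk-1(D327E) (0.0467%). An unadjusted p below 0.05 was met by 1, 1, 1 and 0 of the 38 in these 4 comparisons (3.35%, 1.72%, 3.18% and 1.11% of all genes). Libraries did not overlap for 5 of the 38 genes between daf-16(mgDf50) and its pmk-1(-) double, namely vha-8, cln-3.1, cln-3.3, nuc-1 and asah-1, all lower in the double (14.7% of all genes), and for 1, nuc-1, with its pmk-1(D327E) double (15%). Between daf-16(m26) and its pmk-1(-) double, libraries did not overlap for 8 of the 38, 6 higher and 2 lower in the double (24.5%). Here nuc-1 and asah-1 were higher in the double, whereas with mgDf50 they were lower. The nuc-1 means were 94.9 TPM in daf-16(m26) and 111 TPM in its double, and 113 TPM in daf-16(mgDf50) and 110 TPM in its double. Those of asah-1 were, in the same order, 28.8, 46.1, 44.6 and 34.9 TPM. Each separation was of 2 libraries against 2, and no interaction of pmk-1(-) with a daf-16 allele was called for either gene. Between daf-16(m26) and its pmk-1(D327E) double, libraries did not overlap for 5, 2 higher and 3 lower (21.6%).

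**Figure D2:**
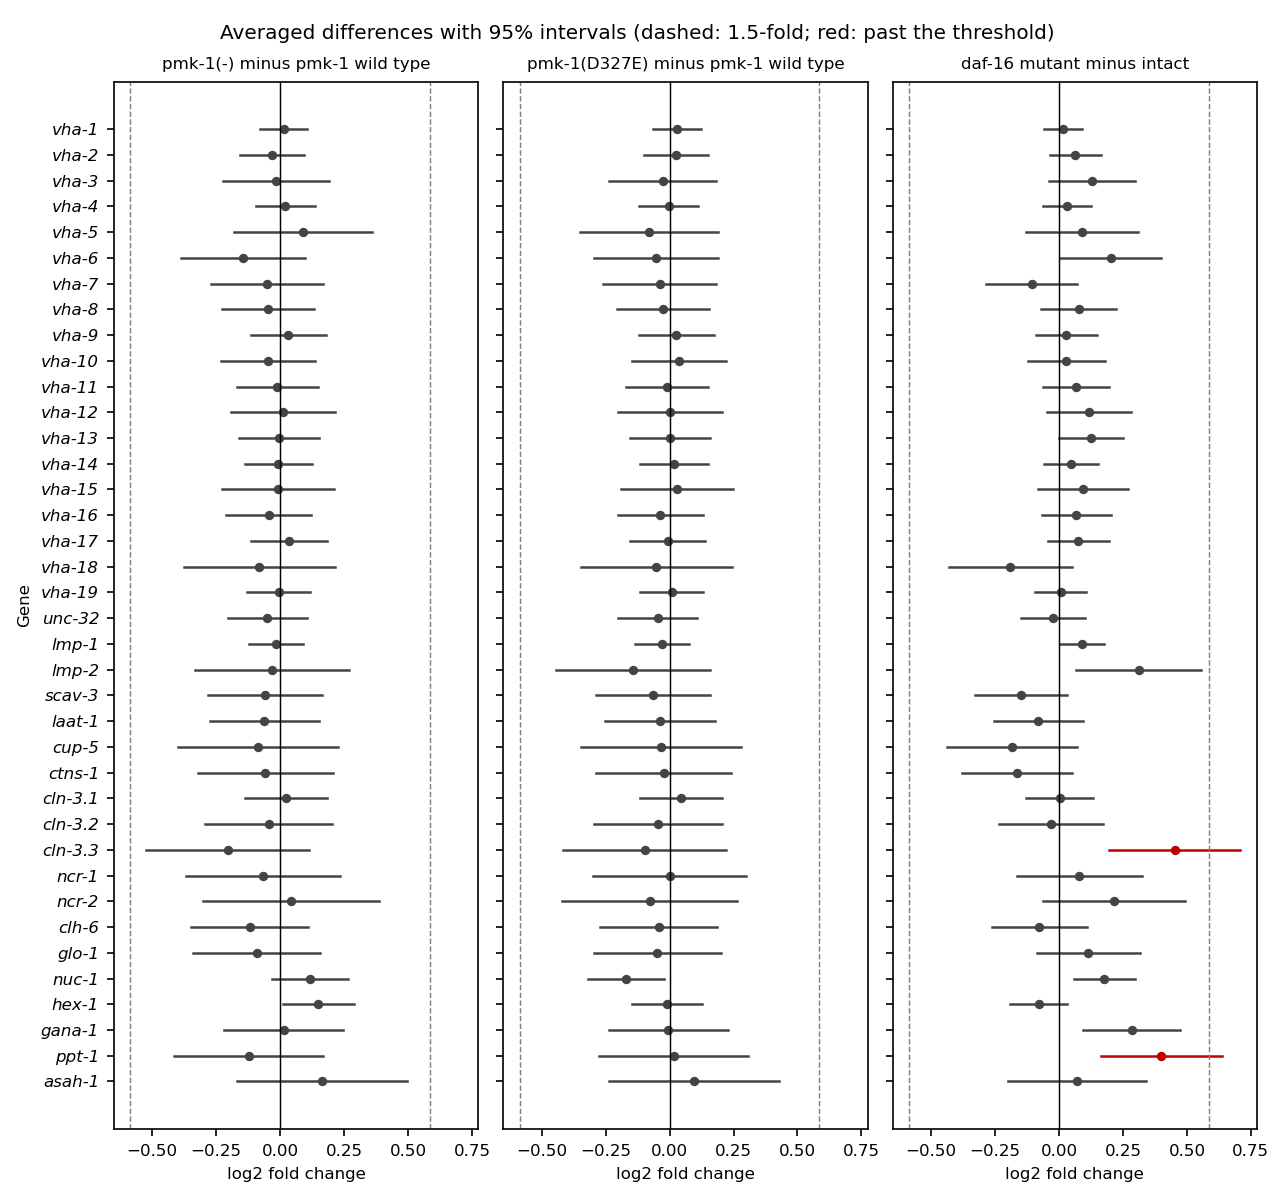
Log2 fold change of each gene, with its 95% interval, for the effect of each pmk-1 allele averaged over 3 daf-16 backgrounds and for loss of daf-16 averaged over both alleles and the pmk-1 backgrounds; dashed lines mark 1.5-fold and red marks an adjusted p below 0.1. In both pmk-1 panels all 38 intervals lie within 1.5-fold, and cln-3.3 and ppt-1 pass the threshold in the daf-16 panel.

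The pmk-1 alleles were also set against each other, which does not use the wild type. Against pmk-1(-), the single mutant pmk-1(D327E) had 0 of 38 genes called (1.08% of all genes tested), with 2 at an unadjusted p below 0.05 (4.41%). Averaged over the 3 daf-16 backgrounds 1 of 38 was called (2.6% of all genes), namely nuc-1, which was lower in pmk-1(D327E), and 2 had an unadjusted p below 0.05 (7.79%). nuc-1 stood at 85.6, 87.0 and 94.6 TPM in wild type, at 92.7, 97.2 and 111 in pmk-1(-) and at 75.9, 83.3 and 82.0 in pmk-1(D327E). nuc-1 stood at 114 and 112 TPM in daf-16(mgDf50), 111 and 109 in its pmk-1(-) double and 104 and 80.5 in its pmk-1(D327E) double, and at 99.2 and 90.5 in daf-16(m26), 112 and 109.5 in its pmk-1(-) double and 98.7 and 82.6 in its pmk-1(D327E) double. The gene lies on chromosome X. In each of the 3 daf-16 backgrounds every pmk-1(D327E) library was below every pmk-1(-) library, which held for 1 of the 38 genes, while such a separation in either direction was seen for 2.22% of all genes tested.

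The averaged log2 difference of nuc-1 between pmk-1(D327E) and pmk-1(-) was -0.29 (SE 0.07, adjusted p = 0.0439), with a 95% interval of -0.44 to -0.14. In the single mutants alone it was -0.31 (SE 0.10, unadjusted p = 0.00911, adjusted p = 0.426). Against the wild-type allele of pmk-1, nuc-1 differed on the log2 scale by -0.17 (SE 0.07, unadjusted p = 0.0274, adjusted p = 1.000) with D327E and by 0.12 (SE 0.07, unadjusted p = 0.113, adjusted p = 0.997) with the null, both averaged over the daf-16 backgrounds, and neither passed the test. The call depended on single libraries. The adjusted p ran from 0.0120 to 0.180 when 1 library was left out, and the difference from -0.35 to -0.23. The call was lost without pmk-1(D327E) replicate 1, daf-16(mgDf50);pmk-1(-) replicate 1, daf-16(mgDf50);pmk-1(-) replicate 2, daf-16(mgDf50);pmk-1(D327E) replicate 2, daf-16(m26);pmk-1(-) replicate 1, daf-16(m26);pmk-1(-) replicate 2 and daf-16(m26);pmk-1(D327E) replicate 2, in 7 of 21 cases. It was also lost when only the genotypes compared were fitted, at an adjusted p of 0.132.

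hex-1 stood at 23.2, 26.5 and 25.7 TPM in wild type, at 32.2, 28.6 and 27.9 in pmk-1(-) and at 24.4, 24.0 and 24.9 in pmk-1(D327E). hex-1 stood at 24.2 and 26.4 TPM in daf-16(mgDf50), 26.8 and 25.3 in its pmk-1(-) double and 23.0 and 26.04 in its pmk-1(D327E) double, and at 23.1 and 23.0 in daf-16(m26), 23.9 and 28.8 in its pmk-1(-) double and 23.2 and 24.6 in its pmk-1(D327E) double. hex-1 in pmk-1(-) thus lay above every wild-type and every pmk-1(D327E) library, but these log2 differences did not pass the test, at 0.23 (SE 0.10, unadjusted p = 0.0346, adjusted p = 0.746) against wild type and -0.26 (SE 0.10, unadjusted p = 0.0160, adjusted p = 0.606) for pmk-1(D327E) against pmk-1(-). Averaged over the daf-16 backgrounds the latter was -0.16 (SE 0.06, adjusted p = 0.439). hex-1 was the 1 of the 38 genes in the list of pmk-1-dependent lysosomal genes that the study chose on these libraries, so its direction here is not independent evidence. Libraries did not overlap for 1 of the 38 genes between pmk-1(-) and wild type (6.09% of all genes) and for 2, vha-1 and nuc-1, between pmk-1(D327E) and wild type (6.12%). Between the pmk-1 alleles they did not overlap for 3, cln-3.3, nuc-1 and hex-1 (6.28%). The summed coelomocyte markers, scavenger cells rich in lysosomes, were 10.1 to 14.9 TPM (median 13.03, n = 7) with pmk-1(-) and 9.17 to 14.9 TPM (median 10.1, n = 7) with pmk-1(D327E). The intestine marker sums were 616 to 1298 TPM (median 683, n = 7) and 743 to 1203 TPM (median 830.5, n = 7). The part of these markers in the nuc-1 and hex-1 values was not tested.

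**Figure D3:**
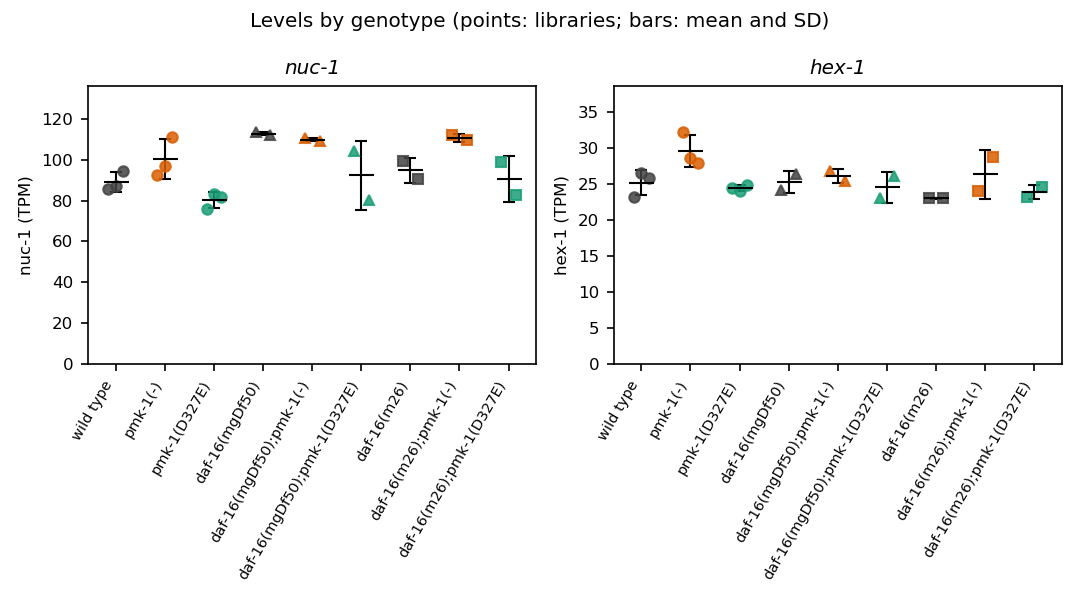
Levels of nuc-1 and hex-1 in TPM by genotype; points are libraries, coloured by pmk-1 allele, and black bars give the mean and SD. The pmk-1(D327E) points of nuc-1 lie below the pmk-1(-) points in each daf-16 background, and the 3 pmk-1(-) points of hex-1 lie above those of wild type.

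Loss of daf-16 was examined with each allele. Against wild type, 0 of 38 genes were called in daf-16(mgDf50) (0.366% of all genes tested) and 0 in daf-16(m26) (0.195%), while 8 and 1 had an unadjusted p below 0.05 (10.2% and 7.23% of all genes). The largest log2 fold changes in size were cln-3.3 at 0.82 (SE 0.25, adjusted p = 0.433) and ppt-1 at 0.61 (SE 0.23, adjusted p = 0.488) in daf-16(mgDf50), and cln-3.3 at 0.59 (SE 0.25, adjusted p = 0.604) and ctns-1 at -0.38 (SE 0.21, adjusted p = 0.604) in daf-16(m26). Without daf-16(mgDf50) replicate 2, which left 1 library of that genotype, cln-3.3 was called at 1.23 (adjusted p = 0.0701), and without replicate 1 it stood at 0.41 and was not called. The fold change of 30 of 38 genes was above 0 in daf-16(mgDf50), with a median of 0.16 beside -0.01 over all genes, and of 20 in daf-16(m26), with a median of 0.00 beside -0.04. With the replicate number as a block the counts became 20 of 38 in daf-16(mgDf50), 17 of them higher, where 34.7% of all genes were called, and 3 of 38 in daf-16(m26), where 23.2% were called. The 17 included 11 V-ATPase genes, and the 3 lower genes were ctns-1, cup-5 and vha-18. In daf-16(m26) the 3 were cln-3.3, higher, and ctns-1 and vha-18, lower. Whether these numbers mark shared batches is not given in the sources used here. Libraries did not overlap with wild type for 16 genes in daf-16(mgDf50), 15 of them higher (21.7% of all genes), and for 12 in daf-16(m26), 4 of them higher (36.5%).

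Over both alleles and the pmk-1 backgrounds, 12 libraries against 9, cln-3.3 and ppt-1 were higher with daf-16 mutated, 2 of 38 genes called, against 3.95% of all genes tested. The other 36 were not called without a replicate block, and 7 of the 38 had an unadjusted p below 0.05 (21.3% of all genes). With the block 26 of 38 were called, 19 higher and 7 lower, where 61.7% of all genes were called. cln-3.3 stood at 4.51, 3.76 and 5.15 TPM in wild type, at 5.30, 4.98 and 5.04 in pmk-1(-) and at 4.54, 4.82 and 4.46 in pmk-1(D327E). cln-3.3 stood at 11.8 and 6.24 TPM in daf-16(mgDf50), 5.70 and 4.48 in its pmk-1(-) double and 9.06 and 5.64 in its pmk-1(D327E) double, and at 8.499 and 6.04 in daf-16(m26), 7.18 and 6.03 in its pmk-1(-) double and 8.42 and 5.22 in its pmk-1(D327E) double. The log2 difference of cln-3.3 was 0.45 (SE 0.12, adjusted p = 0.0800). In the mutants the first replicate was above the second in every genotype, the highest being daf-16(mgDf50) replicate 1. The groups overlapped, at 4.48 to 11.8 TPM (median 6.14, n = 12) with daf-16 mutated and 3.76 to 5.30 TPM (median 4.82, n = 9) with it intact. None of the 38 genes separated the 12 libraries from the 9, as 0.0934% of all genes did. cln-3.3 overlaps ZC190.7 on the other strand, which averaged between 1.58 and 2.53 TPM by genotype, and reads of the pair may not be told apart.

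ppt-1 stood at 2.01, 1.44 and 1.79 TPM in wild type, at 2.34, 1.40 and 1.44 in pmk-1(-) and at 2.01, 1.59 and 1.71 in pmk-1(D327E). ppt-1 stood at 4.18 and 2.35 TPM in daf-16(mgDf50), 1.99 and 2.61 in its pmk-1(-) double and 3.33 and 2.49 in its pmk-1(D327E) double, and at 2.87 and 1.90 in daf-16(m26), 2.58 and 2.12 in its pmk-1(-) double and 3.40 and 2.07 in its pmk-1(D327E) double. ppt-1, a low gene throughout, differed by 0.40 on the log2 scale (SE 0.11, adjusted p = 0.0846), and its groups overlapped, at 1.90 to 4.18 TPM (median 2.54, n = 12) with daf-16 mutated and 1.40 to 2.34 TPM (median 1.71, n = 9) with it intact. Both calls depended on which libraries were used, and both were lost without a filter on low values and after rescaling. That of cln-3.3 held in 7 of 21 cases in which 1 library was left out, namely without wild type replicate 3, pmk-1(-) replicate 1, daf-16(mgDf50) replicate 2, daf-16(mgDf50);pmk-1(-) replicate 2, daf-16(mgDf50);pmk-1(D327E) replicate 2, daf-16(m26) replicate 2 and daf-16(m26);pmk-1(D327E) replicate 2, and the adjusted p ran from 0.0176 to 0.185. That of ppt-1 held in 5 cases, without pmk-1(-) replicate 1, daf-16(mgDf50) replicate 2, daf-16(mgDf50);pmk-1(D327E) replicate 2, daf-16(m26) replicate 2 and daf-16(m26);pmk-1(D327E) replicate 2, with an adjusted p of 0.0220 to 0.194, and each was lost in the other cases. The number of the 38 genes called was 11 without pmk-1(-) replicate 1, 5 without daf-16(mgDf50) replicate 2 and between 0 and 3 without any other library.

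gana-1, with a log2 difference of 0.28 (SE 0.09, adjusted p = 0.117), nuc-1 at 0.18 (SE 0.06, adjusted p = 0.122) and lmp-2 at 0.31 (SE 0.11, adjusted p = 0.157) did not pass without the block. With it all of them were called higher, where 61.7% of all genes were called. lmp-2 was 12.1 to 23.3 TPM (median 15.6, n = 12) with daf-16 mutated and 10.97 to 18.3 TPM (median 11.3, n = 9) with it intact. The 20 V-ATPase subunits, of which 0 were called without the block and 14 with it (12 higher, and vha-7 and vha-18 lower), had unblocked fold changes from -0.19 (vha-18) to 0.20 (vha-6), all with 95% intervals within 1.5-fold. Their summed level was 5831 to 7270.2 TPM (median 6321, n = 12) with daf-16 mutated and 5392 to 6807 TPM (median 5981, n = 9) with it intact. Markers of other tissues were summed in the same libraries. Intestine markers summed to 669 to 1425 TPM (median 875, n = 12) with daf-16 mutated and 616 to 1298 TPM (median 752, n = 9) with it intact. Oocyte markers summed to 856 to 1515 TPM (median 1263, n = 12) and 819.6 to 1767 TPM (median 1479, n = 9), and body muscle markers to 276 to 537 TPM (median 507, n = 12) and 187 to 761 TPM (median 295, n = 9). Their part in the differences with daf-16 was not tested.

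**Figure D4:**
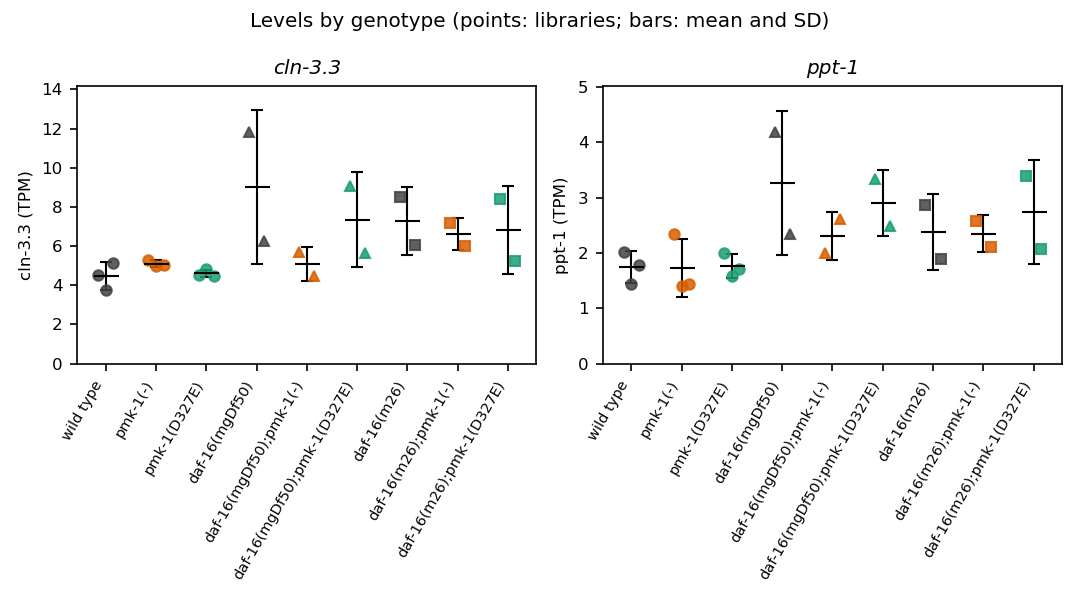
Levels of cln-3.3 and ppt-1 in TPM by genotype; points are libraries, with triangles for daf-16(mgDf50) and squares for daf-16(m26), and black bars give the mean and SD. The highest point of both genes is a daf-16(mgDf50) library, and the libraries of the daf-16 mutants are far apart within a genotype.

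The alleles of daf-16 were compared directly, 6 libraries of each. 0 of 38 genes were called (0.662% of all genes tested), or 1, vha-1, with the replicate block (1.42%), and 3 had an unadjusted p below 0.05 (6.24%), with log2 differences for vha-1 of -0.15 (SE 0.05, unadjusted p = 0.00464, adjusted p = 0.352), cln-3.1 of -0.22 (SE 0.08, unadjusted p = 0.0158, adjusted p = 0.556) and lmp-1 of -0.14 (SE 0.05, unadjusted p = 0.0192, adjusted p = 0.606), for daf-16(m26) minus daf-16(mgDf50). The 6 daf-16(mgDf50) libraries lay above the 6 daf-16(m26) libraries for vha-1, at 332 to 381 TPM (median 361, n = 6) against 318 to 331 TPM (median 323, n = 6), and for lmp-1, at 141 to 156 TPM (median 142, n = 6) against 125 to 139.9 TPM (median 132, n = 6). This held for 2 of the 38 genes and, in either direction, for 0.997% of all genes. The interval of the difference lay within 1.5-fold for all 38 genes, beside 76.3% of all genes.

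Whether a pmk-1 allele acted differently with daf-16 mutated was tested by interaction terms. 0 of 38 genes were called in each of the 4 interactions, which called 0.0779% of all genes for the null and 0.109% for D327E where mgDf50 was the daf-16 allele, and 0.0156% for the null and 0.0234% for D327E where it was m26. An unadjusted p below 0.05 was met by 1 gene in the first, cln-3.3 with a log2 term of -0.83 (SE 0.35, unadjusted p = 0.0327, adjusted p = 0.954), and by 0 in the others (1.27%, 1.12%, 1.32% and 0.693% of all genes, in the same order). These terms were less precise than the averages. The 95% interval of the interaction lay within 1.5-fold for 15, 24, 17 and 22 of the 38, against 21.2%, 28.9%, 19.4% and 27.3% of all genes tested. asah-1 had the largest log2 difference of the 38 for pmk-1(-) within daf-16(m26), 0.62 (SE 0.29, adjusted p = 1.00), from 28.8 ± 2.64 TPM to 46.1 ± 15.6 TPM (SD, n = 2 each), and did not pass.

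The 38 genes varied along a shared axis on which libraries of 1 genotype could lie far apart. A single axis (the first principal component of log2(TPM + 1)) held 63.9% of the variance of the 38 genes, and the first axis over all 12843 genes 52.3%. Libraries stood in a similar order on both, so the axis was not particular to the 38 genes. The ranks on the axis of the 38 and on that of all genes were 1 and 2 for daf-16(mgDf50) replicate 1 and 3 and 1 for pmk-1(-) replicate 1. They were 21 and 20 for wild type replicate 2 and 20 and 21 for pmk-1(-) replicate 2. By the sign of their weight, cup-5, vha-18, ctns-1, scav-3, vha-7, clh-6, laat-1, cln-3.2, unc-32 and hex-1 were on one side of the axis, 10 genes in all. hex-1 had a weight of only -0.0126, against -0.264 for cup-5. On the other side were the remaining 28, with cln-3.3, lmp-2, ppt-1, ncr-2, gana-1 and vha-6 leading. daf-16(mgDf50) replicate 1 lay at the end of high vha-6, with V-ATPase genes summing to 7270.2 TPM, and wild type replicate 2 (5559 TPM) and pmk-1(-) replicate 2 (5392 TPM) at the end of high vha-18. The oocyte markers summed to 856 TPM in the first of these libraries and to 1762 and 1767 TPM in the others. The part of oocyte and intestine RNA in this axis was not tested.

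Libraries of 1 genotype could lie at both ends. pmk-1(-) replicate 1 and replicate 2 differed in the V-ATPase sum (6807 and 5392 TPM) and in the intestine marker sum (1298 and 616 TPM). The V-ATPase sum was higher in replicate 1 than in replicate 2 in 8 of 9 genotypes, vha-6 in 8, cln-3.3 in 8 and ppt-1 in 8, and vha-18 and ctns-1 in 0 and 0. nuc-1 was higher in replicate 1 in 6 of 9 genotypes and hex-1 in 4. By genotype mean, daf-16(mgDf50) was highest for 17 of the 38 genes and wild type for 8, and wild type and daf-16(m26) were lowest for 9 each. These counts were not made over all genes. The daf-16(mgDf50) mean is of 2 libraries that lay far apart on the axis, at 1.91 for replicate 1 and -0.12 for replicate 2. The highest library exceeded the lowest by a median of 1.55 times over the 38 genes, and of 1.91 times over the 12673 tested genes above 0 in every library.

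**Figure D5:**
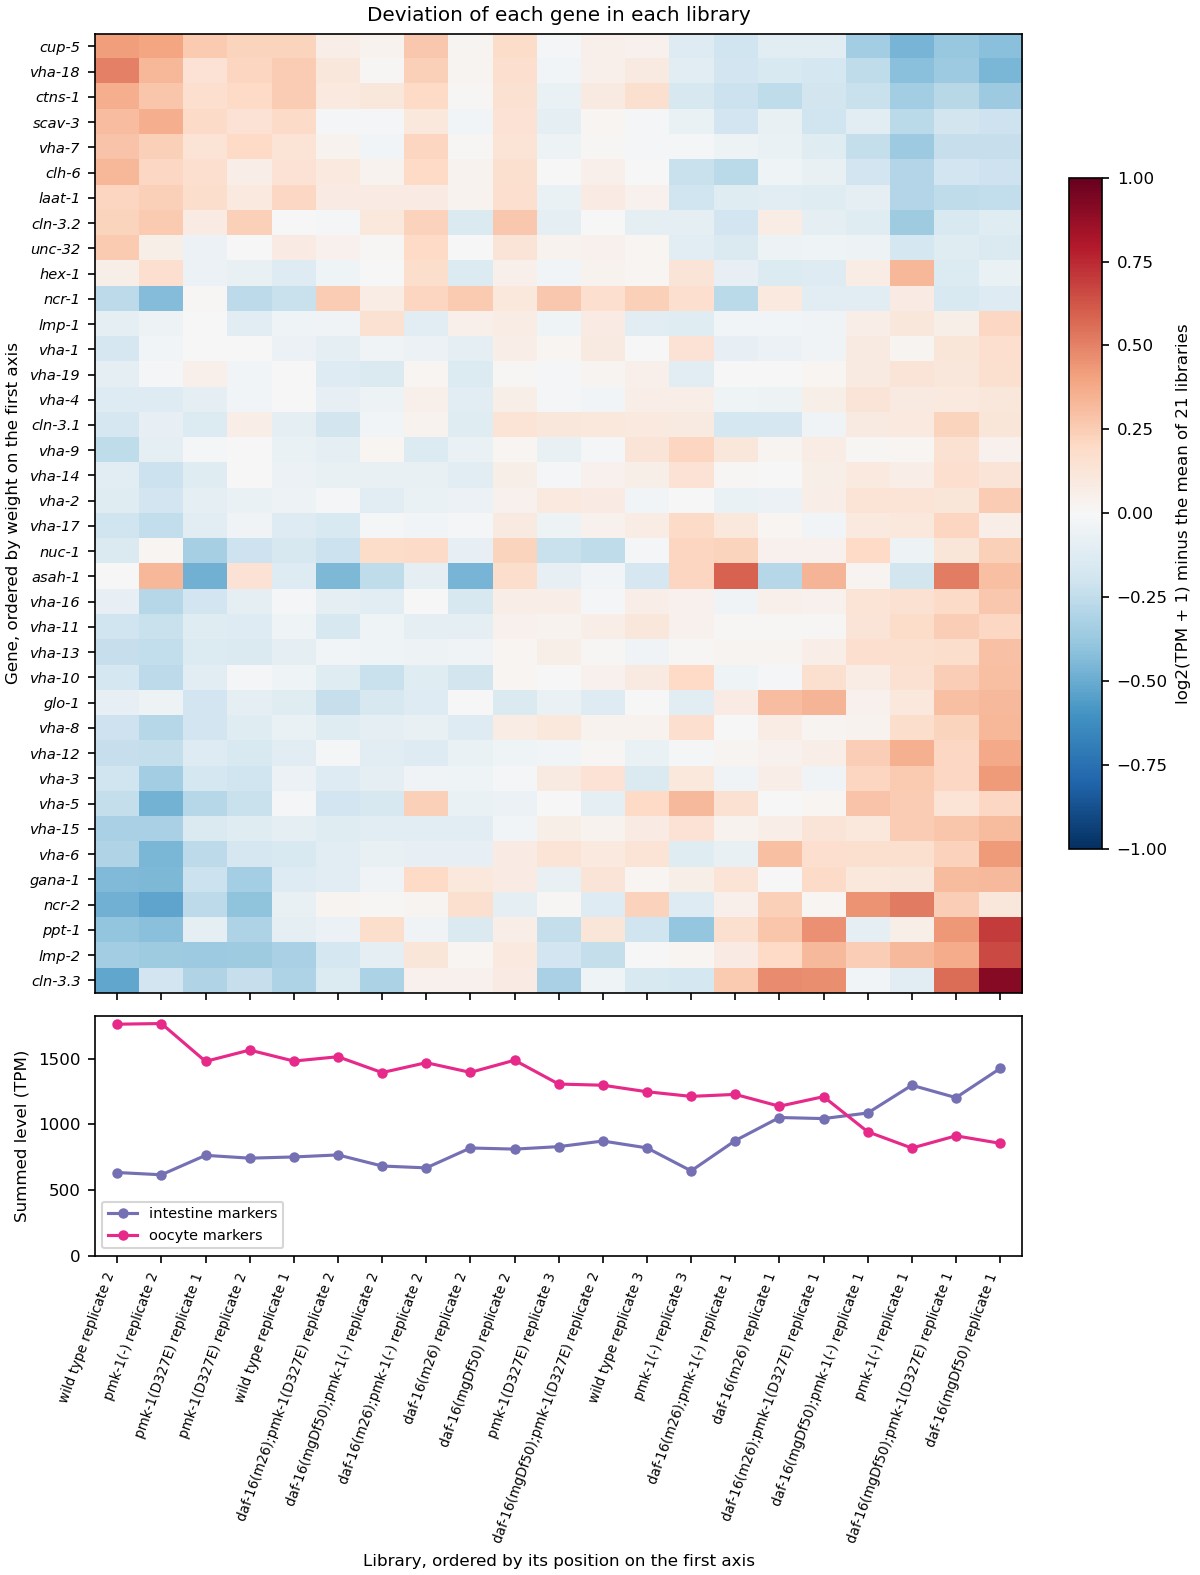
Deviation of log2(TPM + 1) of each gene from its mean over 21 libraries, with genes and libraries ordered along the first axis of variation, above the summed TPM of the intestine and the oocyte markers in the same libraries. Along the axis from wild type replicate 2 to daf-16(mgDf50) replicate 1 the genes from cup-5 to hex-1 go from high to low or are mixed, most V-ATPase genes and cln-3.3 go from low to high, the oocyte sum falls from 1762 to 856 TPM and the intestine sum ends at 1425 TPM.

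Of 35 other genes of the lysosome, chosen for their function, 30 passed the filter. None was called in 16 of the 18 comparisons, where 0.0156% to 1.65% of all genes tested were called, and 0 to 3 had an unadjusted p below 0.05 in each (0.693% to 10.2% of all genes). In each of the other 2 comparisons 2 of 30 were called, where 2.6% and 3.95% of all genes were. Between the pmk-1 alleles, averaged over the daf-16 backgrounds, the cathepsin D-like protease genes asp-3 and asp-4 went opposite ways, asp-3 being higher in pmk-1(D327E) than in pmk-1(-) by 0.59 on the log2 scale (SE 0.15, adjusted p = 0.0650) and asp-4 lower, at -0.36 (SE 0.05, adjusted p = 0.00119). asp-4 was 179 to 199.9 TPM (median 189, n = 7) with D327E and 226 to 263 TPM (median 236, n = 7) with the null, and asp-3 794 to 1293 TPM (median 948, n = 7) and 447 to 879 TPM (median 685, n = 7). With daf-16 mutated, spin-3, a homolog of the lysosomal efflux transporter Spinster, was higher by 0.77 on the log2 scale (SE 0.21, adjusted p = 0.0846) and asm-2, an acid sphingomyelinase, by 0.61 (SE 0.16, adjusted p = 0.0744). The groups overlapped, at 4.23 to 16.1 TPM mutated and 2.17 to 5.48 TPM intact for spin-3, and 12.2 to 28.6 and 8.40 to 19.7 TPM for asm-2. Both were higher in replicate 1 than in replicate 2 in 8 of 9 genotypes. The calls of these other lysosomal genes were not followed with a library left out.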

How the data were processed

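mRNA-seq was analysed from 21 whole-worm libraries of 9 genotypes, grouped by the genotype in the sample labels. Per the labels and the methods, the authors trimmed 76-base single-end reads, aligned them with STAR to ce10, removed duplicates with Picard and counted RefSeq genes with featureCounts, and duplicate removal lowers the ceiling for abundant genes. The values used here are TPM as deposited by the authors. TPM keeps no depth, so the depth per library is unknown and no counting error is given. The authors' own edgeR comparisons (fold changes, likelihood ratios and p-values) were deposited too and were not used. limma 3.58.1 in R 4.3.3 (trend, robust) was fitted to log2(TPM + 1) in 1 model of 9 genotypes, keeping the 12843 genes whose mean over all libraries reached 1 TPM, with Benjamini-Hochberg adjustment over all of them and a threshold of 0.1. The fit was tested on simulated data. Alternatives changed the pseudocount, filter, scaling, trend, threshold, samples in the fit and replicate block.

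The members and lists were chosen with earlier results of these data known. Every member is named. Values in each library are given for members past the threshold, for the pair with the largest change in each single mutant, and for the a-subunit and proteolipid genes, with hex-1 added after its values were seen. The libraries of pmk-1(-) were taken as paired with wild type by replicate number, from the values alone. Their deviations from the group means correlated over genes (0.196, 0.856 and 0.424). Differently numbered libraries were not compared in this way, so the pairing is undecided. With the block no member was called in pmk-1(-) against wild type, while the count over all genes went from 81 to 215. Replicates are biological per the series description, and collection dates are not given in the sources used here. Both libraries of daf-16(mgDf50);pmk-1(-) have the same replicate number in their titles, so their bracketed codes were used, and the sources differ in 1 strain name. Chromosomes, neighbouring and overlapping genes were read from an annotation of another build (WBcel235), so no coordinates are printed, and promoter sequences were not used here.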

Additional observations from a re-analysis of the deposited data

How the results depend on the processing

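The counts of V-ATPase and lysosomal genes called were within 1.5 times of the reported ones in 152 of 161 recalculations other than those leaving out a library. Directions were checked only for a chosen set of genes and comparisons, not for every member in every comparison, and none of those checked turned. For loss of daf-16 the count of 2 became 0 without a filter on low values and 0 after rescaling to a median log2 ratio of 0. It was also 0 at an adjusted p below 0.05. The count was 1 (cln-3.3) with a filter at a mean of 5 TPM, which left ppt-1 (mean 2.27 TPM) untested. For pmk-1(D327E) minus pmk-1(-) the count of 1 became 0 when only the genotypes compared were fitted. That fit could not be made for loss of daf-16, which uses all 9 genotypes. With 1 library left out, the count ran from 0 to 11 for loss of daf-16, from 0 to 1 for pmk-1(D327E) minus pmk-1(-) and from 0 to 1 for daf-16(mgDf50) against wild type, and stayed at 0 in the other comparisons. Where this left 1 library in a group, its spread was taken from the other groups.

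With the replicate number as a block, the count was 26 for loss of daf-16 (7921 of all genes), 20 for daf-16(mgDf50) against wild type (4452), 3 for daf-16(m26) against wild type (2977) and 1, vha-1, between the daf-16 alleles (182). The block changed no count of these 38 genes in the other comparisons, whereas the count over all genes rose there, as from 81 to 215 in pmk-1(-) against wild type. Deviations of same-numbered libraries from their group means correlated with those of wild type at 0.0174, 0.711 and 0.766 in pmk-1(D327E), so not every pair was over 0.1, and at 0.119 to 0.702 in the daf-16 genotypes. Libraries with the same number are not stated to share a batch. The daf-16 genotypes have only 2 numbers each, so the pairing is undecided there as well, and the cause was not tested. TPM without counts limits what can be said of low genes such as ppt-1 and ncr-2.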
